A study of Mus musculus with 10 samples.

Results

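Myelin is the lipid-rich membrane that oligodendrocytes wrap around axons, and 9 genes of its structure and lipid synthesis were followed in the hippocampus: Mbp, Mobp, Cnp, Cldn11, Mal, Mag, Mog, Ermn and Ugt8a. They were taken by gene symbol from a table of 31510 genes, and all 9 were among the 17556 genes with enough signal to be tested. The tissue was the micro-dissected hippocampus of male APP/PS1 mice (34832-JAX), transgenic animals whose brains accumulate amyloid. The 5 AAV8-irisin mice had received a vector for FLAG-tagged irisin through the tail vein, and the 5 AAV8-GFP mice had received the same kind of vector for GFP by the same route. All 10 mice were transgenic, were injected at 8 months of age and were collected 2 months later, so no mouse without transgenes or without vector was included. Irisin is the secreted form of the muscle protein encoded by Fndc5, the liver was the intended source of it here, and the comparison asks what it changed in the hippocampus.

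Compact myelin forms when the cytoplasmic faces of the membrane are pressed together by basic proteins, above all myelin basic protein. Other proteins sit where myelin meets the axon, at its outer surface or in its cytoplasmic channels, and a large share of its lipid is galactosylceramide. In the hippocampus, myelin is densest in fibre tracts such as the alveus and the fimbria. These are bulk samples, in which fewer oligodendrocytes and less RNA per oligodendrocyte cannot be told apart.

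Means of all 9 genes were higher in AAV8-irisin than in AAV8-GFP mice, by 0.053 (Cnp) to 0.17 (Mog) on the log2(value + 1) scale, and none passed the test. The groups overlapped for each of the 9 genes. AAV8-GFP mouse 3 had the lowest value of all 10 mice for every one of them, and AAV8-GFP mouse 2 was the next lowest for 8. The 9 genes went up and down together from mouse to mouse, and their proportions to each other varied far less than their levels.

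The values are DESeq2 normalised counts as deposited, summing to between 35300000 and 36600000 per library, with an estimated depth of 30700000 to 41500000 reads. Neurons of the hippocampus were present in each library: Prox1, a transcription factor of dentate granule cells, lay between 3417 and 4505 in AAV8-irisin mice and between 3649 and 4428 in AAV8-GFP mice.

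Levels of different genes were compared per kilobase of merged exon in GENCODE M21, a length that counts exons of every annotated isoform. Mbp, which encodes the basic protein that compacts myelin (ENSMUSG00000041607.17, mm10 chromosome 18, 82475146 to 82585637, plus strand), was the highest, at 7544 ± 494 normalised counts per kb in AAV8-irisin and 7163 ± 860 in AAV8-GFP mice (SD, n = 5 each). Mobp, a smaller basic protein of compact myelin (chromosome 9, 120149707 to 120181484, plus strand), came next with 2986 ± 225 per kb in AAV8-irisin and 2768 ± 416 in AAV8-GFP. Averaged over the 10 mice, Mbp stood 10.4-fold above Mog per kilobase, and Mobp 4.09-fold.

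Cnp, a phosphodiesterase of the cytoplasmic channels of myelin (chromosome 11, 100574904 to 100591729, plus strand), averaged 2177 per kb in AAV8-irisin and 2106 in AAV8-GFP. Cldn11, the claudin that seals the layers of central myelin (chromosome 3, 31149920 to 31164324, plus strand), averaged 1769 per kb in AAV8-irisin and 1663 in AAV8-GFP. Mal, a proteolipid of membrane rafts that helps to sort myelin components (chromosome 2, 127633226 to 127656695, minus strand), averaged 1709 per kb in AAV8-irisin and 1580 in AAV8-GFP. These 3 genes form the middle of the order, and Cldn11 and Mal are neighbours whose ranges overlap: Cldn11 was above Mal in 9 of 10 mice, and AAV8-GFP mouse 3 was the exception.

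Mag, a sialic acid-binding adhesion protein of the membrane that faces the axon (chromosome 7, 30899176 to 30914873, minus strand), averaged 1047 per kb in AAV8-irisin and 1011 in AAV8-GFP. Mog, an immunoglobulin-domain protein of the outermost myelin surface (chromosome 17, 37010743 to 37023398, minus strand), averaged 742 per kb in AAV8-irisin and 666 in AAV8-GFP. Ermn, an actin-binding protein of the oligodendrocyte cytoskeleton (chromosome 2, 58045113 to 58052864, minus strand), averaged 397 per kb in AAV8-irisin and 356 in AAV8-GFP. Ugt8a, the enzyme that joins galactose to ceramide and so makes galactosylceramide (chromosome 3, 125865271 to 125938619, minus strand), was the lowest at 243 per kb in AAV8-irisin and 223 in AAV8-GFP. Every other pair of neighbours kept its order in 10 of 10 mice. Exons of Cnp overlap an exon of Dnajc7 and exons of Ermn overlap one of Galnt5 on the opposite strand, over 4.23% and 6.52% of their exonic length, so their values could hold reads of those genes.

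**Figure D1:**
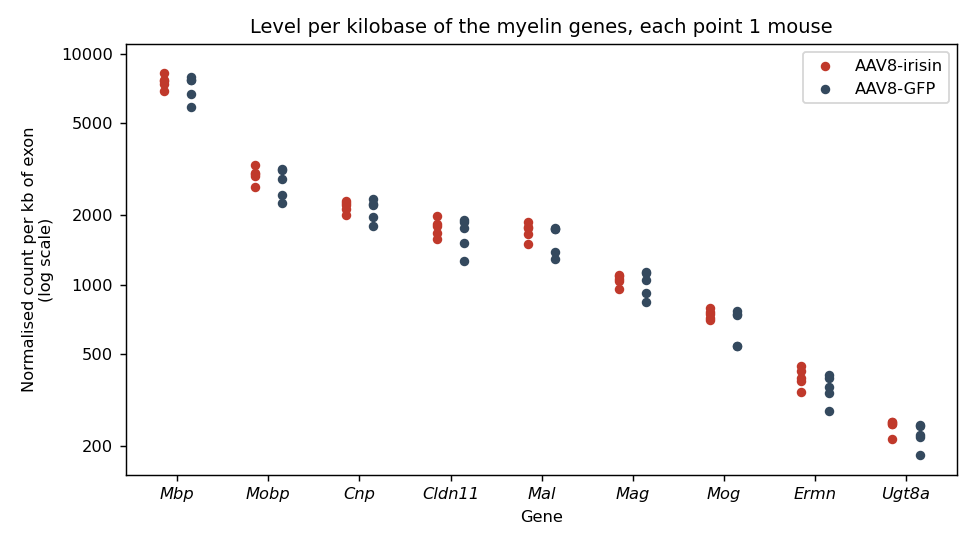
Normalised count per kilobase of merged exon (log axis) for the 9 myelin genes, each point 1 mouse, AAV8-irisin in red and AAV8-GFP in dark blue. Mbp stands 10.4-fold above Mog on average, and the order of the genes is the same in both groups.

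The 250 bases before the start sites of the genes were compared for short letter runs that factors of the lineage are known to bind. Windows came from RefSeq on GRCm38.p6, the build also called mm10, and 8 of the 9 genes had at least 1, with 10 windows in all because Mag has 3 annotated starts. Mbp had no window, so it was not searched. The runs searched on both strands were ACAAAG, a core bound by SOX factors such as SOX10, the related ACAATG, the E-box CAGCTG, of the kind bound by OLIG2, and TATAAA, the core of a TATA box. Matches to ACAAAG were found in 4 of the 10 windows, against 16.5% of all 32851 windows, and in those of 3 of the 8 genes (Mag, Mobp and Cnp), against 18.6% of all 27025 genes. A match to ACAATG was found in 1 of the 10 windows, against 10.7% of all windows, and so for 1 gene (Ermn), against 12.2% of all genes. Neither CAGCTG, present in 13.0% of all windows, nor TATAAA, present in 12.4%, was in any of the 10 windows. For Mag, 2 overlapping windows hold the same match, of which 1 is shown, and the third holds none. Windows with a match follow, 1 for each gene, from 5′ to 3′ with the matches in capitals, each ending before the first annotated exon base.
Mobp (chr9:120149492-120149706, plus strand): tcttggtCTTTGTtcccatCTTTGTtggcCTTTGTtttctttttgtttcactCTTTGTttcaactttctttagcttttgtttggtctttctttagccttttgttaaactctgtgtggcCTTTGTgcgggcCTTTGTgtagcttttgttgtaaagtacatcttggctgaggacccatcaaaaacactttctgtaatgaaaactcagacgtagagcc
Mag (chr7:30914923-30915172, minus strand): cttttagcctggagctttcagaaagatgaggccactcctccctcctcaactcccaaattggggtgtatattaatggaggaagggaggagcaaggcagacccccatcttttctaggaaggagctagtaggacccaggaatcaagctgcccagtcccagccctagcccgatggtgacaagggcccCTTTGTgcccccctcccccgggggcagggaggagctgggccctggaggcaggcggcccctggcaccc
Cnp (chr11:100574689-100574903, plus strand): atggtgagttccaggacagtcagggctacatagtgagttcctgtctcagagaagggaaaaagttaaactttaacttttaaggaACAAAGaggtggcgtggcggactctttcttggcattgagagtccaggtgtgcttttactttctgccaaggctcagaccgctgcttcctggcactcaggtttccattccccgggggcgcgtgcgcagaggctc
Ermn (chr2:58052865-58053114, minus strand): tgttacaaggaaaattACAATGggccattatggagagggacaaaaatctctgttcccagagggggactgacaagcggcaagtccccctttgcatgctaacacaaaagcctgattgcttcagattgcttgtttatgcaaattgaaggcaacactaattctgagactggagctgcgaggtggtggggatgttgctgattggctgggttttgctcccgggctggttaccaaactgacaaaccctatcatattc
The Mobp window holds 6 matches, all read as CTTTGT on the strand shown, and no other of the 32851 windows holds as many. This stretch is rich in t and repeats similar runs of letters, and its comparison with all windows was made after the matches were seen. The Mag and Cnp windows shown hold 1 ACAAAG match each, and Ermn holds 1 ACAATG match. Cldn11, Mal, Mog and Ugt8a had no match in their windows. A match is a description of letters only, and its part in the values of these genes was not tested.

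Among the proteins of compact myelin, Mbp had 62541, 58206, 69807, 64147 and 64769 normalised counts in AAV8-irisin mice 1 to 5, against 64819, 56655, 49737, 66896 and 65209 in AAV8-GFP mice 1 to 5. AAV8-irisin mouse 3 was the highest of the 10, and AAV8-GFP mice 3 and 2 were the lowest, while the other 3 AAV8-GFP mice lay inside the AAV8-irisin range. The log2 difference was 0.081 (standard error 0.072, 95% interval −0.074 to 0.24). Mobp had 20113, 18179, 22457, 20680 and 20844 normalised counts in AAV8-irisin, against 19532, 16644, 15386, 21715 and 21500 in AAV8-GFP. The same 2 AAV8-GFP mice were low, and the log2 difference was 0.12 (standard error 0.087, 95% interval −0.066 to 0.31).

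Cldn11 had 3121, 2940, 3707, 3355 and 3421 normalised counts in AAV8-irisin, against 3293, 2820, 2372, 3501 and 3561 in AAV8-GFP. AAV8-GFP mouse 3 lay furthest from its own group here, and the log2 difference was 0.10 (standard error 0.098). Mal, the raft proteolipid, ranged from 4169 to 5163 in AAV8-irisin and from 3594 to 4855 in AAV8-GFP, and AAV8-irisin mice 3, 4 and 5 exceeded all AAV8-GFP mice. Its log2 difference was 0.12 (standard error 0.086, 95% interval −0.064 to 0.31).

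Of the proteins at the edges of myelin, Mog had 1223, 1191, 1295, 1350 and 1265 normalised counts in AAV8-irisin, against 1304, 925, 921, 1272 and 1253 in AAV8-GFP. The 5 AAV8-irisin values are close together, and the AAV8-GFP values form a set of 3 near the AAV8-irisin level and 2 that are lower. At 0.17 (standard error 0.097, 95% interval −0.035 to 0.38), the log2 difference was the largest among the 9 genes. Mag, on the side that faces the axon, ranged from 3882 to 4461 in AAV8-irisin and from 3417 to 4594 in AAV8-GFP, so the AAV8-irisin range lay inside that of AAV8-GFP. Its log2 difference was 0.058 (standard error 0.074). Cnp, the enzyme of the cytoplasmic channels, also had its AAV8-irisin range (7262 to 8338) inside its AAV8-GFP range (6519 to 8539), and the log2 difference was 0.053 (standard error 0.065).

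Ermn, the cytoskeletal protein, had 1433, 1242, 1606, 1542 and 1392 normalised counts in AAV8-irisin, against 1302, 1238, 1029, 1428 and 1478 in AAV8-GFP. AAV8-irisin mice 3 and 4 were above each AAV8-GFP mouse, and the log2 difference was 0.16 (standard error 0.092, 95% interval −0.035 to 0.36). Ugt8a, the lipid enzyme, had 1154, 968, 1129, 1124 and 1147 normalised counts in AAV8-irisin, against 1012, 988, 831, 1121 and 1108 in AAV8-GFP. Here 4 AAV8-irisin mice exceeded all AAV8-GFP mice, but by 3.34 normalised counts for the nearest of them, and AAV8-irisin mouse 2 lay below 4 of the 5 AAV8-GFP mice. The log2 difference was 0.13 (standard error 0.078, 95% interval −0.036 to 0.30).

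**Figure D2:**
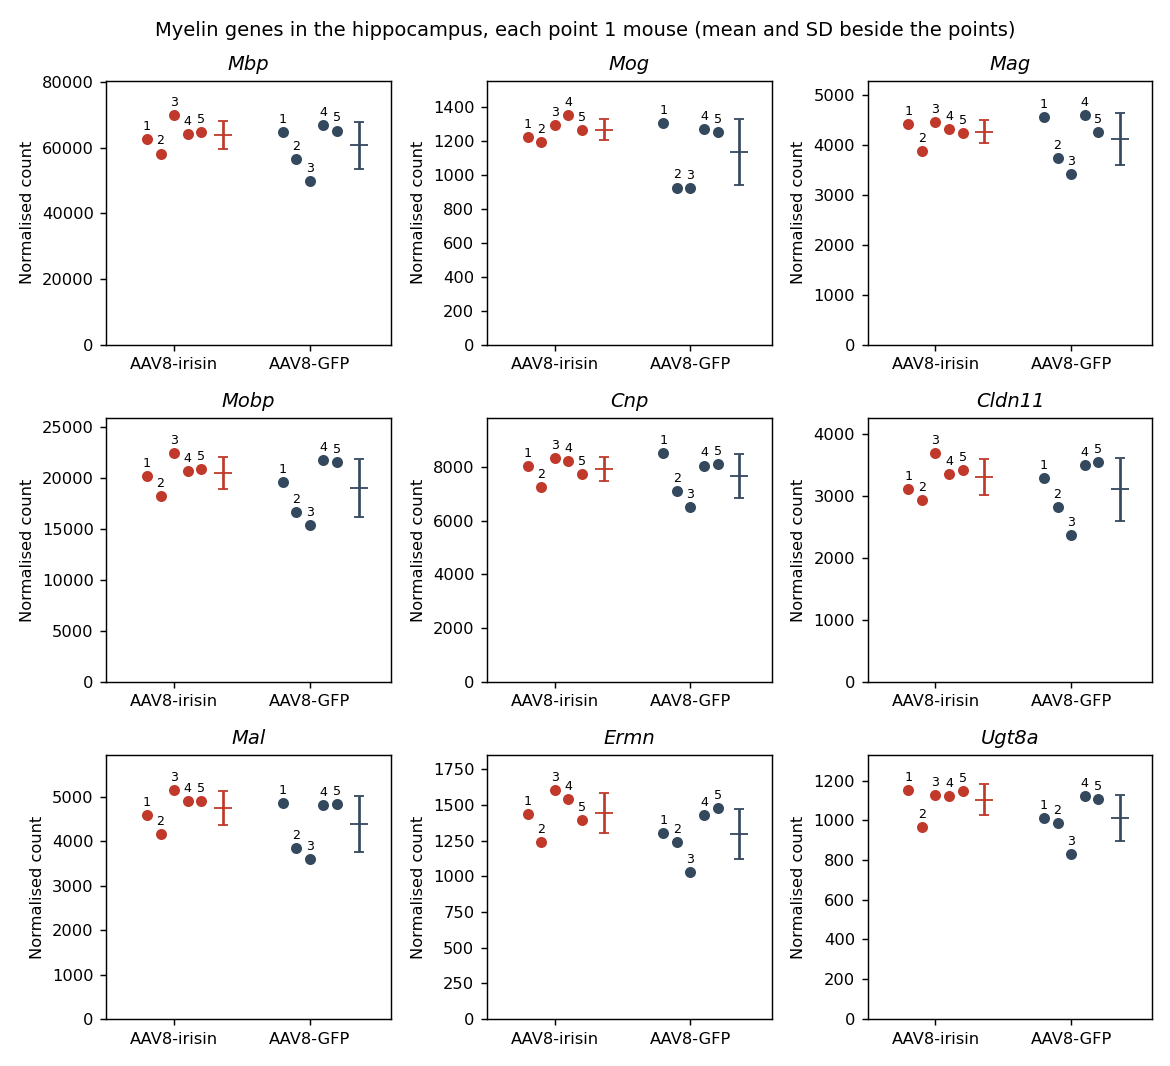
Normalised count (linear axis from 0) of each of the 9 genes, each point 1 mouse with its number, with the mean and SD of 5 mice beside the points. AAV8-GFP mouse 3 is the lowest point in each panel. AAV8-GFP mice 1, 4 and 5 lie above the lowest AAV8-irisin mouse in each panel.

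By limma on log2(value + 1), fitted across 17556 genes with Benjamini-Hochberg adjustment, 0 of the 9 genes passed an adjusted p of 0.05, where 0.0% of all genes did, and their adjusted p-values lay between 0.942 and 0.952. None of the 9 had an unadjusted p under 0.05, against 4.49% of all genes, and the smallest was 0.096, for Mog. None had groups that did not overlap, against 0.803% of all genes. A higher mean in AAV8-irisin was found for 9 of 9 genes and for 50.5% of all genes tested, with a median log2 difference of 0.12 for the 9 and of 0.000986 for all genes. Since the 9 genes follow each other from mouse to mouse, the 9 higher means are not 9 separate observations.

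The higher means moved with 2 AAV8-GFP mice. Without AAV8-GFP mouse 3, the median log2 difference of the 9 genes was 0.0481, with 7 higher means, and Mag (−0.0067) and Cnp (−0.0039) had lower ones. Without both AAV8-GFP mice 2 and 3, the median was −0.0339, and 2 of 9 means, those of Ermn (0.037) and Ugt8a (0.031), were higher in AAV8-irisin. These are the 2 lowest mice of their group for all 9 genes, so leaving them out brings the AAV8-GFP mean up by construction. Without AAV8-irisin mouse 2, the lowest of its group for the 9 genes, the median was 0.162.

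**Figure D3:**
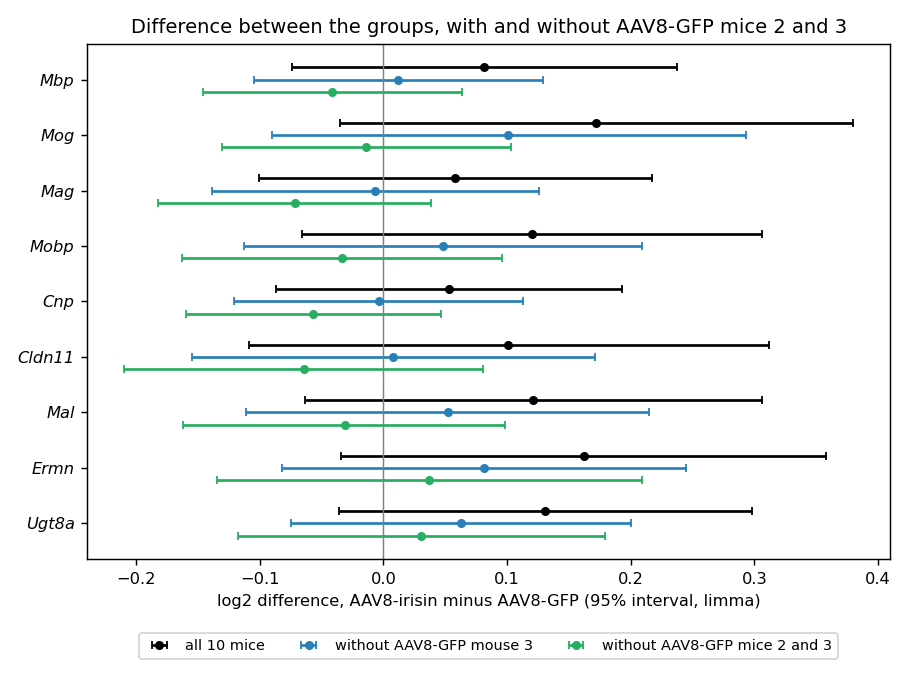
Log2 difference, AAV8-irisin minus AAV8-GFP, of each gene with its 95% interval from limma, for all 10 mice (black), without AAV8-GFP mouse 3 (blue) and without AAV8-GFP mice 2 and 3 (green). Each interval includes 0, and the green points lie below 0 for 7 of the 9 genes.

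The 9 genes shared most of their variation between mice. Taken as the mean log2 deviation of the 9 genes from their own means, AAV8-irisin mice 1 to 5 stood at 0.047, −0.099, 0.16, 0.10 and 0.070, and AAV8-GFP mice 1 to 5 at 0.054, −0.18, −0.34, 0.10 and 0.092. The group means of this deviation were 0.056 ± 0.096 in AAV8-irisin and −0.056 ± 0.20 in AAV8-GFP (SD, n = 5 each). Within AAV8-GFP mouse 3 each of the 9 genes was low, between −0.42 (Cldn11) and −0.25 (Cnp). In AAV8-irisin mouse 3 each was high, between 0.096 and 0.24, and this mouse held the highest value of 5 of the 9 genes. AAV8-GFP mouse 3 was the lowest library for 9 of 9 genes and for 11.5% of all genes tested, and AAV8-GFP mice 3 and 2 were below every other mouse for 8 of 9 genes and for 2.22% of all genes, counts that were made after the values were seen.

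**Figure D4:**
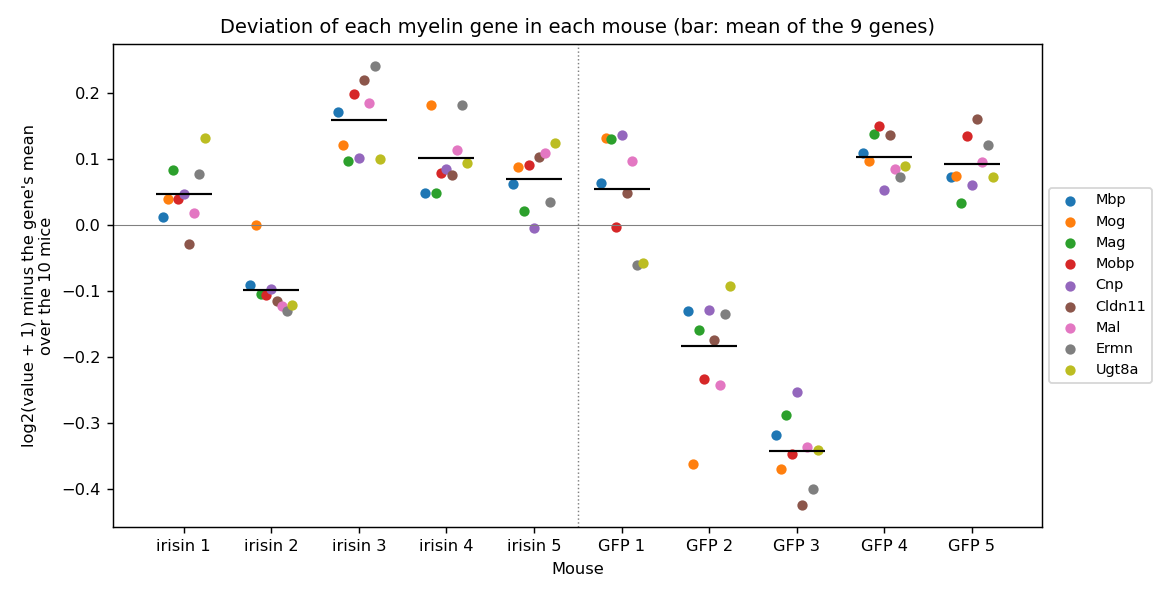
Deviation of log2(value + 1) from the gene's mean over the 10 mice, for each of the 9 genes (coloured points) in each mouse, with a bar at the mean of the 9 genes. The bars run from −0.34 in AAV8-GFP mouse 3 to 0.16 in AAV8-irisin mouse 3, and the genes stay close together within a mouse.

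Proportions among the genes were steadier than their levels. The SD of log2(value + 1) over the 10 mice had a median of 0.174 for the 9 genes, against 0.0741 for the 6572 tested genes at least as high as the lowest of them. For the log2 ratio of a gene to the mean of the other 8, the SD had a median of 0.0587. Mbp kept the most constant proportion, with an SD of 0.0338 for this ratio, followed by Mal with 0.0363 and Mobp with 0.0416. Mog was the least constant, with an SD of 0.0896, and its ratio was lowest in AAV8-GFP mouse 2, at −0.20 from its mean. Among the 36 pairs of genes the steadiest ratio was that of Mag to Cnp, with an SD of 0.0392, and the least steady that of Mog to Ugt8a, with 0.126.

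The AAV8-GFP mice differed more among themselves than the AAV8-irisin mice did. The coefficient of variation ran from 4.90% (Mog) to 9.78% (Ermn) in AAV8-irisin and from 10.8% (Cnp) to 17.1% (Mog) in AAV8-GFP. The SD of log2(value + 1) was larger in AAV8-GFP for 9 of 9 genes and for 62.9% of all genes tested, and the ratio of the AAV8-GFP SD to the AAV8-irisin SD had a median of 1.93 for the 9 genes and 1.2 for all genes. Without AAV8-GFP mice 2 and 3, the SD of the mean log2 deviation of the 9 genes was 0.026 in AAV8-GFP, against 0.096 in AAV8-irisin. Leaving out the 2 lowest mice narrows the spread by construction. Since the 9 genes follow each other, their 9 larger SDs are not 9 separate observations, and the difference in spread was not tested.

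The genes outside the set whose profile over the 10 mice came closest to the mean of the 9 were found by the root mean square difference of log2 deviations. Among the closest were Prr18 at 0.0488, Bcas1, a marker of myelinating oligodendrocytes, at 0.052, and Il33, an alarmin cytokine found in oligodendrocytes and astrocytes, at 0.0561. Bcas1 averaged 4468 ± 271 normalised counts in AAV8-irisin and 4284 ± 440 in AAV8-GFP (SD, n = 5 each), and AAV8-GFP mouse 3 was its lowest library. Further genes were Ttyh2, Cfap65, Sec14l5, Tmem88b, Myrf, the transcription factor that switches on myelin genes, and Spsb1, at 0.0588 to 0.0664. A gene that did not vary at all would be at 0.15, and the median of all tested genes was 0.192.

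The wider gene lists of the lineage deviated less in AAV8-GFP mouse 3 than the 9 genes did. Of 25 other myelin and oligodendrocyte membrane genes, 0 passed the test in either direction: 19 had a higher and 6 a lower mean in AAV8-irisin mice, and the median log2 difference was 0.0417. In this list the oligodendrocyte membrane glycoprotein gene Opalin had a log2 difference of 0.044, and the tetraspanin gene Tspan2 one of 0.15 (unadjusted p = 0.0317, adjusted p = 0.942 by limma). AAV8-GFP mouse 3 was the lowest library for 11 of the 25. The median of the 25 was 0.0134 when AAV8-GFP mouse 3 was left out and −0.0381 when AAV8-GFP mice 2 and 3 both were.

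Of 20 genes of myelin lipid synthesis and oligodendrocyte metabolism, 0 passed, with 12 higher and 8 lower means and a median of 0.0126, which was −0.0035 without AAV8-GFP mouse 3. Gal3st1, which adds sulfate to the galactosylceramide that Ugt8a makes, had 277 ± 14.4 normalised counts in AAV8-irisin and 279 ± 29.5 in AAV8-GFP (SD, n = 5 each). Log2 differences were 0.056 for Fa2h, which hydroxylates the fatty acids of myelin lipids, 0.014 for the ceramide synthase Cers2 and 0.028 for Aspa, which releases acetate from N-acetylaspartate. AAV8-GFP mouse 3 was the lowest library for 7 of the 20.

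Of 12 oligodendrocyte transcription factors, 0 passed, with 6 higher and 6 lower means and a median of 0.000959. Sox10 had 1472 ± 80.4 normalised counts in AAV8-irisin and 1486 ± 138 in AAV8-GFP, and Olig2 had 892 ± 105 in AAV8-irisin and 897 ± 75.3 in AAV8-GFP (SD, n = 5 each). Log2 differences were −0.029 for Olig1 and 0.057 for Myrf. In AAV8-GFP mouse 3 the 12 factors deviated by −0.058 on average, where the 9 myelin genes deviated by −0.34. That mouse was the lowest library for 4 of the 12, among them Sox10 (1323) and Myrf (1758), and 8 of the 12 were below their own mean there. Set against the mean of Sox10, Olig1 and Olig2 in the same mouse, all 9 myelin genes were lowest in AAV8-GFP mouse 3. On this scale Mbp stood at 5.27 ± 0.10 log2 units above the factors in AAV8-irisin and 5.17 ± 0.13 in AAV8-GFP, and Mog at −0.39 ± 0.14 in AAV8-irisin and −0.58 ± 0.19 in AAV8-GFP (SD, n = 5 each). The median difference between the groups over the 9 genes was 0.137 on this scale. The scale does not separate fewer mature oligodendrocytes from less myelin RNA in each. Genes of precursors and committed cells deviated by 0.11 on average in AAV8-GFP mouse 3, and the part of such cells in Sox10, Olig1 and Olig2 was not tested.

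Markers of other cells and of neighbouring tissue also differed in the mice that set these values. All 8 ependymal genes were below their own mean in AAV8-GFP mouse 3 and above it in AAV8-irisin mouse 3, with mean log2 deviations of 0.44 in AAV8-irisin mouse 3 and −0.82 in AAV8-GFP mouse 3. Their summed level was 765 to 1057 in AAV8-irisin and 508 to 963 in AAV8-GFP, 7 of 8 had a higher mean in AAV8-irisin, 0 passed the test, and none was at 0 in any library. Among them the ciliary gene Ccdc153 averaged 103 ± 18.1 in AAV8-irisin and 78.8 ± 34.8 in AAV8-GFP, and Foxj1, the regulator of motile cilia, 242 ± 45.8 in AAV8-irisin and 228 ± 74.5 in AAV8-GFP. Log2 differences were 0.60 for Tmem212 and 0.20 for Rsph1. The median log2 difference of the 8 was 0.322, and it was 0.141 without AAV8-GFP mouse 3 and 0.0269 without AAV8-GFP mice 2 and 3. Dnah11, a ciliary dynein gene named after its values were seen, had a log2 difference of 0.70 (limma, unadjusted p = 0.0071, adjusted p = 0.942). In AAV8-irisin mouse 2 and AAV8-GFP mouse 5, the ependymal genes deviated by 0.056 and −0.069 on average, where the myelin genes stood at −0.099 and 0.092. In the other mice the mean deviations of the ependymal and the myelin genes had the same sign. The part of ependymal tissue in the myelin values was not tested.

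Choroid plexus genes were highest in another mouse. Their summed level was 929 to 2684 in AAV8-irisin and 739 to 1005 in AAV8-GFP, with Otx2 at 0 in 1 library, and the mean deviation of the 6 tested genes was 1.77 in AAV8-irisin mouse 4, in which the myelin genes stood at 0.10, and −0.78 in AAV8-GFP mouse 3, the lowest of the 10. All 6 had a higher mean in AAV8-irisin and 0 passed. Ttr, the thyroxine carrier that the choroid plexus transcribes heavily, averaged 369 ± 650 in AAV8-irisin and 29.5 ± 18 in AAV8-GFP (limma, unadjusted p = 0.0368, adjusted p = 0.942), and log2 differences were 0.46 for Folr1 and 0.11 for Kl. The median log2 difference of the 6 was 0.325, and 0.128 without AAV8-GFP mouse 3, and the part of choroid plexus in the myelin values was not tested.

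Glial markers ran the other way in AAV8-GFP mouse 3. All 7 microglia genes and all 8 astrocyte genes were above their own mean there, by 0.35 and 0.20 on average. In AAV8-GFP mouse 2, the next lowest in the mean of the myelin genes, these lists stood at −0.091 and −0.013. In AAV8-irisin mouse 3, the highest in that mean, they stood at 0.062 and −0.0085. The microglia genes summed to between 11818 and 14852 in AAV8-irisin and between 11946 and 16758 in AAV8-GFP, with 0 of 7 higher means in AAV8-irisin, and the astrocyte genes to between 162939 and 170750 in AAV8-irisin and between 156140 and 197164 in AAV8-GFP, with 1 of 8 higher. Gfap, the astrocyte filament, had a log2 difference of −0.15, and the microglial receptors Tmem119, P2ry12, Cx3cr1 and Csf1r had −0.12, −0.019, −0.094 and −0.034. Aqp4, Aldh1l1 and Slc1a3 had 0.034, −0.048 and −0.042. The microglia median was −0.0939, and −0.0211 without AAV8-GFP mouse 3; the astrocyte median was −0.0457, and −0.0031 without that mouse. None of these genes was at 0 in any library, 0 passed the test, and their part in the myelin values was not tested.

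Of 8 neuron genes, 5 means were higher in AAV8-irisin and 0 passed, and in AAV8-GFP mouse 3 they deviated by −0.084 on average. Their sum was 203824 to 209085 in AAV8-irisin and 199632 to 210864 in AAV8-GFP, and Snap25, of the synaptic release machinery, averaged 62497 ± 746 in AAV8-irisin and 62127 ± 1886 in AAV8-GFP. Log2 differences were −0.033 for Rbfox3, 0.037 for Syt1 and −0.060 for Slc17a7. The neuron genes did not move as 1 in AAV8-GFP mouse 3, where 5 of the 8 were below their own mean. Snap25 (64737) and Slc17a7 (58469) were higher there than in every other mouse. Of 8 thalamic genes, 4 had a higher mean, 0 passed, and their mean deviation in AAV8-GFP mouse 3 was −0.020. In that list Prkcd had a log2 difference of −0.14 (unadjusted p = 0.0143, adjusted p = 0.942 by limma), Rora 0.075, Lef1 −0.25 and Tcf7l2, which is also on the list of oligodendrocyte factors, 0.065. Of 7 meningeal fibroblast genes, 6 had a higher mean, 0 passed, and their mean deviation in AAV8-GFP mouse 3 was −0.061, with log2 differences of 0.047 for Dcn, −0.049 for Col1a1, 0.37 for Col1a2 and 0.0031 for Lum. Fmod of the meningeal list and Tnnt1 of the thalamic list, both named after their values were seen, had log2 differences of 0.78 and −0.46 with unadjusted p-values of 0.0473 and 0.0475 and an adjusted p of 0.942 each by limma.

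**Figure D5:**
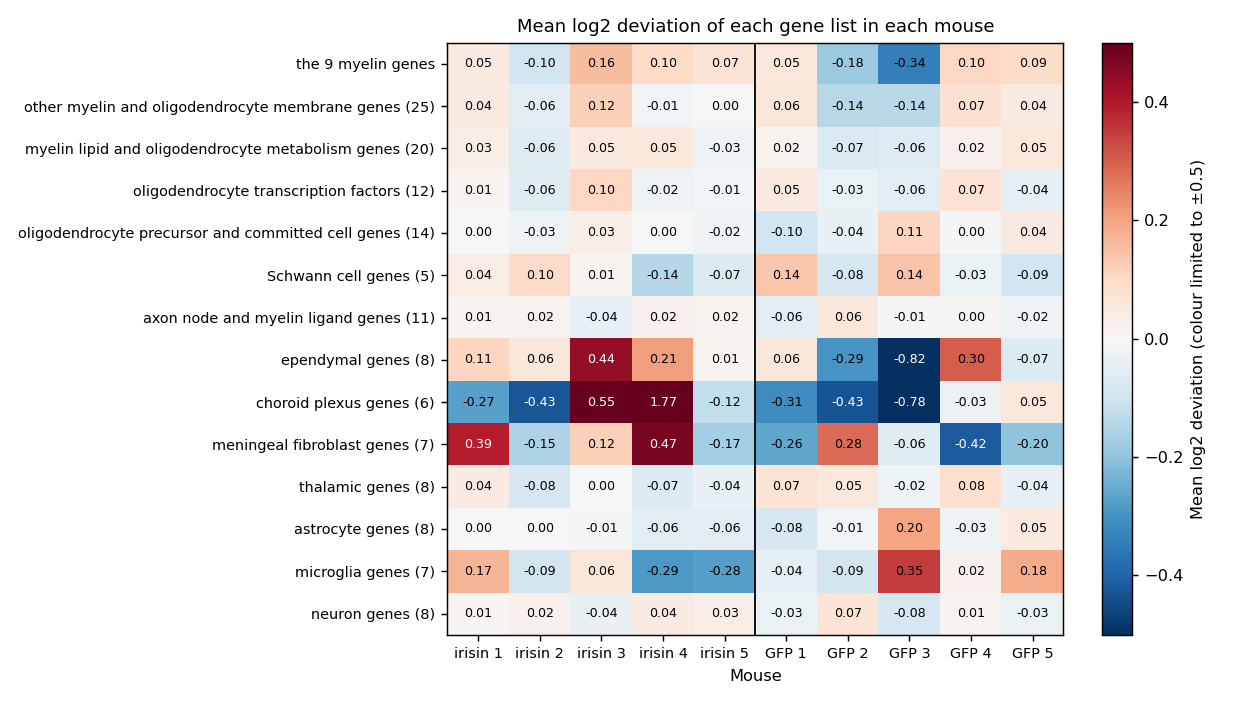
Mean log2 deviation of the tested genes of each list (rows, number of genes in brackets) in each mouse (columns), with colour limited to ±0.5 and the value printed in each cell. AAV8-GFP mouse 3 is at −0.34 for the 9 myelin genes, −0.82 for ependymal genes, 0.35 for microglia genes and −0.058 for oligodendrocyte transcription factors.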

How the data were processed

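Bulk RNA sequencing of the hippocampus of 10 male APP/PS1 mice was analysed. Per the labels' protocols, NEBNext Ultra libraries were made from RNA enriched with oligo(dT) beads. Of tools the authors used, bcl2fastq 2.17 and DESeq2 (no version) appear in the submitters' processing notes, with the build mm10. How reads were aligned and counted, on which strand and annotation, is not given in the sources used here. Each deposited value is a signal per gene and library that the authors normalised with DESeq2, as the table's name states. At most 71.6% of low values were whole multiples of the most frequent low value (tolerance 0.1), so reads were not recovered, no count test was run, and depth is an estimate.

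A gene entered the test if 5 or more libraries had a value of 10 or more. The test was limma 3.58.1 in R 4.3.3 on log2(value + 1), with group as factor and a trended prior variance, two-sided; p-values were adjusted by Benjamini-Hochberg, with calls at 0.05. Differences are AAV8-irisin minus AAV8-GFP, and understate changes of low genes. Each title is a mouse of its own. The spread behind each p-value is that among mice, drawn by limma towards the spread of other genes of similar level. The myelin genes varied more than genes at least as high (median SD 0.174 against 0.0741), so their standard errors and intervals may be too small. With no trend in the prior variance, the standard error was 0.0872 for Mbp and 0.116 for Cldn11. No 2 libraries were alike: the SD of log2 differences was 0.34 to 0.40 over 45 pairs.

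The members and the 13 other lists were chosen with earlier results of these data known. The text names the 9 genes, the first 4 genes of each other list where tested, and the 10 genes of closest profile, leaving out predicted genes; a few of these items are not reported here. Positions and exon lengths are from GENCODE M21, and promoter sequences are from RefSeq (GRCm38.p6). Alternatives were other pseudocounts, filters, scalings and variance models, library weights, a replicate block and leaving out mice.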

Additional observations from a re-analysis of the deposited data

Results flagged for a closer look

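Each group of 5 mice was searched for a mouse that lay far from the other 4 (Dixon's test at 95%) in each of the 66 named genes, which gave 17 such values in 132 groups, where chance flags about 1 in 20. Among the 9 myelin genes there was 1 in 18 groups. Ugt8a, the galactosylceramide enzyme, was 968 normalised counts in AAV8-irisin mouse 2, and 1124 to 1154 in the other 4 mice of its group. AAV8-GFP mouse 3 was not singled out for any of the 9. Dixon's test sets the gap between a mouse and its nearest neighbour against the range of the group. AAV8-GFP mouse 2 was the next lowest of that group for all 9 genes, with 925 normalised counts for Mog against 921 in mouse 3. A second low mouse narrows the gap, so the test does not decide whether AAV8-GFP mouse 3 lay apart.

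Of the genes with the closest profile, AAV8-irisin mouse 2 stood below its group at 199 for Cfap65 and 628 for Sec14l5. In the lineage lists, Tspan2 reached 3311 in AAV8-irisin mouse 1, Gpr17 was 950 in AAV8-irisin mouse 4, Olig2 reached 1029 in AAV8-GFP mouse 4 and Pdgfra was 1462 in AAV8-GFP mouse 1. In the axonal list, Cntn1 was 15778 in AAV8-irisin mouse 3 and 13735 in AAV8-GFP mouse 1, Nfasc was 8243 in AAV8-GFP mouse 1 and Nrg1 reached 243 in AAV8-GFP mouse 2. Ttr, of the choroid plexus, reached 1528 in AAV8-irisin mouse 4, and Tcf7l2 was 113 in AAV8-GFP mouse 5. Among microglia genes, P2ry12 was 921 in AAV8-GFP mouse 1 and Cx3cr1 reached 2753 in AAV8-GFP mouse 3. Among neuron genes, Rbfox3 reached 10683 in AAV8-irisin mouse 3 and Syt1 was 49009 in AAV8-GFP mouse 1.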

How the results depend on the processing

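None of the 9 genes passed under any of 23 alternatives, and the smallest adjusted p of a member was 0.81. In the 11 alternatives that kept all libraries, 9 of 9 means were higher in AAV8-irisin, and the median log2 difference was 0.0859 to 0.12, lowest with array quality weights. Leaving out 1 mouse gave medians of 0.0481 (without AAV8-GFP 3) to 0.162 (without AAV8-irisin 2) and 7 to 9 higher means; it was 0.0757 without AAV8-GFP 2. Without AAV8-GFP mice 2 and 3 the median was −0.0339 with 2 higher means, and the signs turned for Mbp (−0.0413), Mog (−0.0144), Mag (−0.0716), Mobp (−0.0339), Cnp (−0.0569), Cldn11 (−0.0647) and Mal (−0.0315). With 1 mouse left out, Mag ranged from −0.00668 to 0.10 and Cnp from −0.00389 to 0.0935, both turning only without AAV8-GFP 3. Without AAV8-irisin mice 3 and 4 the median was 0.0618. Relative to Sox10, Olig1 and Olig2, the median difference of 0.137 was 0.085 to 0.18 with 1 mouse left out, and 0.114 against all 12 factors. By limma 0 of 17556 genes passed (788 at an unadjusted p under 0.05); with no filter on low values 1 gene did, Gm49383, which is named after its values were seen, was listed at 0 in all AAV8-irisin mice and lay at 2.66 to 13.9 in AAV8-GFP mice. With a replicate block on the mouse numbers, the count of genes past the threshold was 0, the 9 means stayed higher and the median was 0.12; deviations of same-numbered mice correlated at −0.0891 to 0.0297 and 1 of 5 numbers matched its own best, so the numbers were not taken as pairs. Medians of other lists without AAV8-GFP mouse 3, chosen after seeing the data, moved by more than the spread between mice for thalamic genes, to −0.0549, and to −0.0688 without AAV8-GFP mice 2 and 3. Depth is estimated only, so no counting interval is given.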

Other observations

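Genes on either side of the mature myelin sheath had no shared direction between the groups. Of 14 genes of oligodendrocyte precursors and newly committed oligodendrocytes, 7 means were higher and 7 lower in AAV8-irisin, 0 passed the test, and the median log2 difference was 0.00152. In 1 of the 14, C1ql1, a secreted C1q-like protein gene named after its values were seen, the groups did not overlap, with 327 to 355 in AAV8-irisin and 381 to 449 in AAV8-GFP, where 0.803% of all tested genes had groups apart. Its log2 difference was −0.28 (limma, unadjusted p = 0.00055, adjusted p = 0.942), and no other gene of the list had an unadjusted p under 0.05. Pdgfra, the growth factor receptor of precursors, averaged 1903 ± 60.4 normalised counts in AAV8-irisin and 1884 ± 238 in AAV8-GFP, and Gpr17, a receptor of committed cells, 1180 ± 130 in AAV8-irisin and 1287 ± 95.2 in AAV8-GFP (SD, n = 5 each). Log2 differences were −0.093 for the proteoglycan gene Cspg4 and 0.12 for Enpp6, a choline phosphodiesterase of newly formed oligodendrocytes. In AAV8-GFP mouse 3, where the 9 myelin genes stood at −0.34, the precursor genes deviated by 0.11 on average.

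Of 11 genes of axons, nodes and axonal myelin ligands, 4 had a higher and 7 a lower mean, and 0 passed. Nrg1, which encodes a neuregulin that axons present to myelinating cells, averaged 216 ± 18 in AAV8-irisin and 183 ± 34.6 in AAV8-GFP (SD, n = 5 each), a log2 difference of 0.26 (limma, unadjusted p = 0.0421, adjusted p = 0.942). Log2 differences were −0.015 for Cntnap1, 0.089 for Nfasc and 0.065 for Cntn1, proteins of the node and of the junctions beside it. Rtn4r, a receptor for myelin inhibitors of axon growth that was named after its values were seen, had a log2 difference of −0.11 (limma, unadjusted p = 0.044, adjusted p = 0.942). Of 8 Schwann cell genes 5 were tested, with 3 higher and 2 lower means and 0 past the test; Prx averaged 89.1 ± 7.83 in AAV8-irisin and 86.3 ± 16.0 in AAV8-GFP (SD, n = 5 each), and Ncmap had a log2 difference of −0.24. Pmp2 and Foxd3 were among those too low to be tested.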
